A study of Arabidopsis thaliana with 16 samples.

Results

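The 8 libraries of *fer* seedlings in this series spread by replicate number: those numbered 3 and 4 stood on one side and those numbered 1 and 2 on the other, in control and in treated seedlings alike. Replicates 3 and 4 of *fer* (4 libraries) were compared with replicates 1 and 2 of *fer* (4 libraries), with treatment as a covariate, to describe which genes and pathways carried that spread. These are 8 of the 16 libraries of the series, and the other 8 are WT. The grouping was chosen by the expression values (log2 CPM) of these same *fer* libraries, so the *fer* values below are a description and carry no p-value. The labels call the libraries biological replicates and say nothing about what a replicate number stands for, such as a plate, a day or a harvest.

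All seedlings were 10 days old. They were either WT (Col-0) or *fer*, which is *fer-4*, a T-DNA insertion mutant of the receptor kinase gene *FERONIA* (*FER*) in the Col-0 background. Plate-grown seedlings were moved to liquid 1/2MS and left for 2 h, and treated seedlings then received arabidopside A at 12.5 µM for 2 h, while control seedlings received none. The 4 groups, each with 4 replicates, were WT control, *fer* control, WT with arabidopside A and *fer* with arabidopside A (the group labels spell the agent "Aradopside"). Whole seedlings were sequenced with QuantSeq, which reads 1 fragment near the 3′ end of each mRNA. A single mutant allele was used, so nothing here separates the loss of *FER* from other features of that line.

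*FER* encodes a plasma membrane receptor kinase of the CrRLK1L family that binds RALF peptides and takes part in sensing the cell wall, in root hair and pollen tube growth and in the assembly of immune receptor complexes. Mutants that lack it are stunted, carry raised jasmonate and stress signalling, and differ from WT in wall integrity. Pattern-triggered immunity is the defence layer in which surface receptors recognise microbial molecules or the plant's own Pep peptides, and its outputs include WRKY transcription factors and indole defence compounds such as camalexin. Arabidopside A is a plastid galactolipid that carries esterified oxylipins, among them the jasmonate precursor OPDA.

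Total counts ran from 3731548 to 5985875 in the WT libraries. In *fer* they were 4966370, 2843653, 4747060 and 3350474 in control replicates 1 to 4 and 4994304, 26358335, 6055089 and 6860427 in arabidopside A replicates 1 to 4. *FER* itself, the check of the labels, had 356 to 793 counts in each WT library and 0 to 14 in each *fer* library (0 to 11 counts in replicates 1 and 2, and 3 to 14 in replicates 3 and 4). Shoot markers moved with the split. The summed level of 12 shoot markers (leaf identity, light-harvesting and Rubisco genes, all 12 above the filter and none at 0 over the *fer* libraries) was 9583, 7287, 8566 and 7640 CPM in replicates 1 and 2 and 4449, 6597, 5756 and 4854 CPM in replicates 3 and 4, against 12050 to 15260 CPM in WT. Root markers, of which 8 of 12 passed the filter, summed to 120 to 144.6 CPM in replicates 1 and 2 and to 94.4 to 124 CPM in replicates 3 and 4, which overlap. The 6 vascular markers, of which 5 passed, summed to 88.7 to 130.4 and 102.5 to 151 CPM, and the 8 seed storage markers to 8.94 CPM or less. Each sum is over all markers of its list, whether or not they passed the filter. No tested marker was shifted by the definition given below. The part of these differences in the results was not tested, and in whole seedlings fewer cells of a type and less RNA per cell cannot be told apart.

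The split was the leading axis of the *fer* libraries. The first principal component of log2 CPM held 51.5% of their variance, with scores of -40.4, -49.5, 48 and 19 in control replicates 1 to 4 and of -37.7, -14.5, 15.9 and 59.2 in arabidopside A replicates 1 to 4. All libraries numbered 1 and 2 therefore had negative and all numbered 3 and 4 positive scores, with control replicate 3 and arabidopside A replicate 4 farthest out. In WT the first component held 38.4% and separated control from arabidopside A instead. In sums of squares pooled over 16293 genes, the side to which a *fer* library belonged (replicates 3 and 4, or 1 and 2) took 44.3% of the variance among the *fer* libraries and treatment 13.7%. Genes that vary most weigh most in such a share. The corresponding shares in WT were 9.89% and 37.4%, of a mean variance of 0.119 against 0.206 in *fer* (log2 scale). The split was chosen from these *fer* values and not from WT, so its larger share in *fer* follows in part from that choice.

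**Figure D1:**
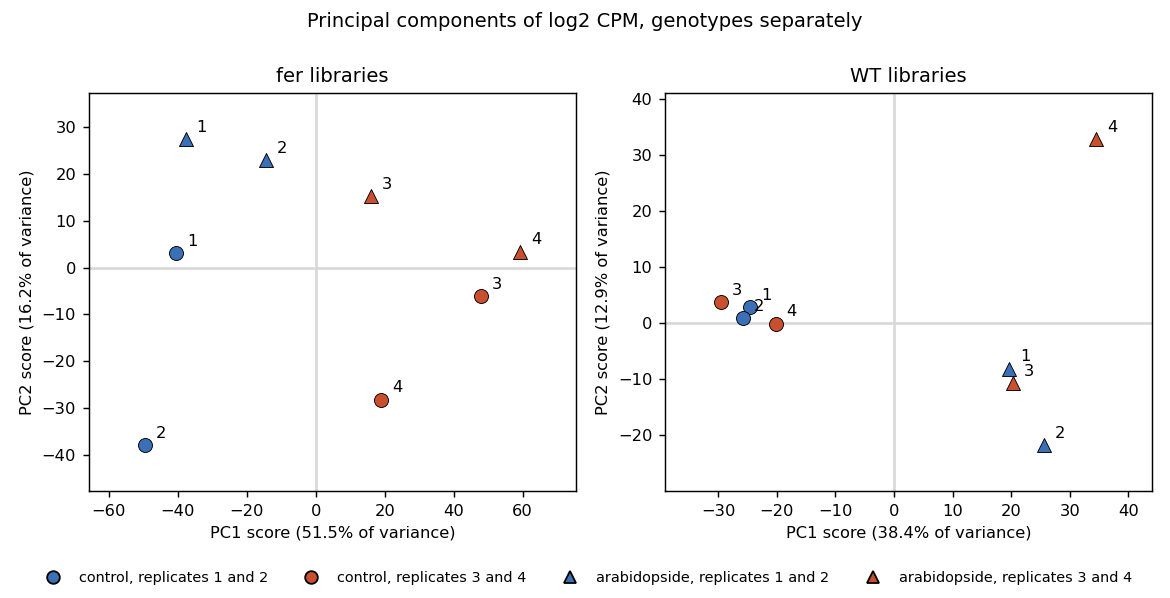
Scores of the first and second principal components of log2 CPM, computed for the 8 *fer* libraries (left) and the 8 WT libraries (right); circles are control, triangles arabidopside A, colours the replicate sides, and the digit is the replicate number. The *fer* replicate sides lie on opposite sides of 0 on an axis with 51.5% of the variance, and the WT treatments on opposite sides of an axis with 38.4%.

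The same-numbered control and treated libraries of *fer* deviated together, and so did different numbers of 1 side. Across 17266 genes, the deviations from the group means correlated (Pearson) at 0.64, 0.40, 0.20 and 0.40 for numbers 1 to 4. Control replicate 3 was more like arabidopside A replicate 4 (0.73) than its own number, and control replicate 1 was like arabidopside A replicate 2 at 0.52. Every pair across the sides was negative, from -0.22 to -0.66. Pairs of WT control and treated libraries lay between -0.05 and 0.09. These are values across genes, which are not independent, and each deviation is taken from a mean of 4 that the library is part of. The sides were chosen from these *fer* values, so the signs by side follow in part from that choice.

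A gene was called shifted when its fitted log2 fold change (replicates 3 and 4 against 1 and 2) was at least 1 in size and when, on the log2 CPM scale, both libraries of one side lay beyond both of the other within control and again within arabidopside A. Of 17266 genes that passed the filter, 1049 were shifted up in replicates 3 and 4 (6.08%), 408 were shifted down (2.36%) and 1457 were either (8.44%). At the edge of the definition, *NAC016* (1.001) was inside and AT1G15430 (0.999) outside. For 937 of the 1049 and 329 of the 408 genes, all 4 libraries of replicates 3 and 4 lay beyond all 4 of replicates 1 and 2 whatever the treatment. Arabidopside A replicate 4 was the highest of the 4 for 522 of the 1049 and control replicate 3 for 324. Leaving out arabidopside A replicate 2 or arabidopside A replicate 3 gave 626 and 716 genes shifted down in place of 408. A filter of at least 10 counts in every *fer* library, which no gene could pass through one side alone, left 14348 genes with 780 shifted up and 231 down. With scaling by upper quartile or by library size alone, 59.9% and 60.7% of shifted genes were up rather than 72.0%, and the median of all genes moved from -0.03 to -0.14 and -0.13.

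The difference was similar across genes with and without arabidopside A, but not equal for all genes and lists. The gap between sides (mean log2 CPM) in control libraries correlated with that in treated libraries at 0.779 over the 17266 genes. Among shifted genes the median size of the gap was 1.49 in control and 1.25 in treated libraries. List medians of the gap in control and treated libraries were -0.30 and -0.75 for cell cycle genes. They were 0.004 and -0.41 for JAZ repressors and 0.08 and -0.50 for root hair genes. With control libraries alone, 768 of the 1049 genes shifted up and 197 of the 408 shifted down were called again. With treated libraries alone, 734 and 201 were. The log2 fold change was hardly related to transcript length (Spearman 0.04), GC content (-0.05) or mean CPM (0.15), all across genes.

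**Figure D2:**
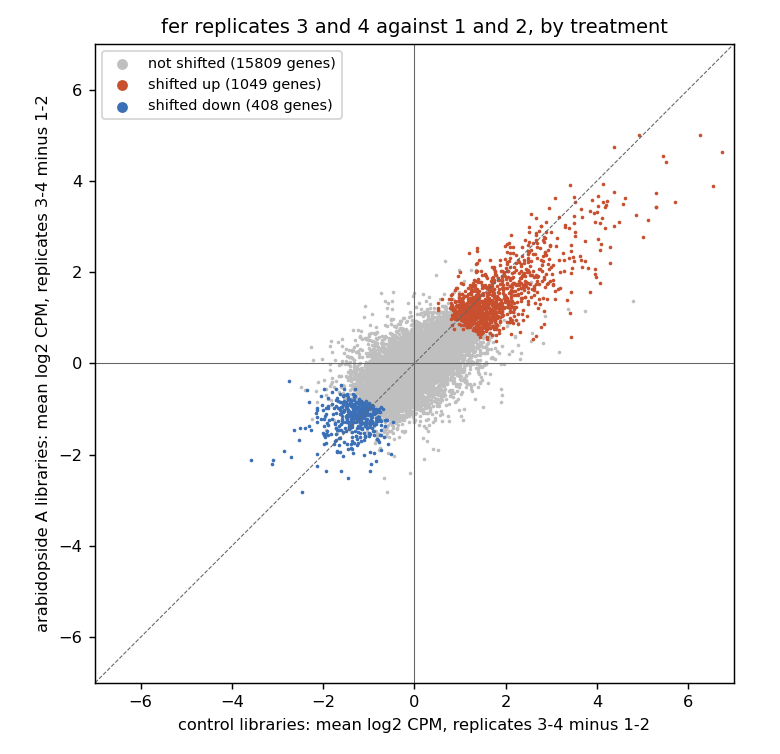
Mean log2 CPM of *fer* replicates 3 and 4 minus that of replicates 1 and 2 for 17266 genes, in control libraries (x axis) and arabidopside A libraries (y axis), with the 1049 genes shifted up and the 408 shifted down in colour. The points run along the diagonal (dashed), and the upper end reaches farther than the lower end.

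In relation to WT, the genes shifted up already stood above it in replicates 1 and 2 and farther above it in replicates 3 and 4. Their median log2 difference from the WT control mean was 0.99, 1.00, 2.94 and 2.56 in *fer* control replicates 1 to 4 and 0.98, 1.51, 2.29 and 2.96 in arabidopside A replicates 1 to 4. Both *fer* control libraries of replicates 3 and 4 stood above all 4 WT control libraries for 1025 of the 1049 genes (97.7%, against 29.1% of all genes tested). For replicates 1 and 2 that held for 711 (67.8%, against 22.1%). The genes shifted down stood at medians of -0.21, -0.20, -1.55 and -1.32 in control replicates 1 to 4 and of -0.30, -0.68, -1.36 and -1.84 in arabidopside A replicates 1 to 4. Their values in replicates 1 and 2 lay on both sides of WT. Of these 408 genes, 326 were below every WT control library in both control replicates 3 and 4 (79.9%, against 28.6%) and 143 in replicates 1 and 2 (35.0%, against 16.8%). Both sides were set against the same 4 WT libraries. The genes were chosen by these same *fer* values, so how either side ranks against WT follows in part from that choice.

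WT seedlings carried the same numbers, and the split rule did not use them. Replicates 3 and 4 of WT were compared with replicates 1 and 2 by edgeR's quasi-likelihood test with treatment as a covariate, and 0 of 16775 genes passed an adjusted p of 0.05 (0%, smallest adjusted p 0.999). At an unadjusted p under 0.05 there were 589 genes (3.51%), 316 higher and 273 lower, and DESeq2 and limma-voom also called 0, with 318 and 593 genes at that unadjusted level. None of the pathway list members that could be tested in WT was called. Missing that threshold does not show that the WT replicates were equal. This test in WT and the definition of shifted genes in *fer* are unlike criteria. The 0% in WT and the 8.44% of genes shifted in *fer* are therefore not a like-for-like comparison. Of the 1049 genes shifted up, the 730 that could be tested in WT had a median log2 fold change of 0.02 there. The 391 testable genes of the 408 shifted down also had a median of 0.02. The others did not pass the filter on counts in WT.

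The promoters of the shifted genes were searched for short motifs, and the shares are given as a description with no test. The W-box, bound by WRKY factors, was searched as TTGACC or TTGACT on both strands in the 250 bases upstream of each annotated gene start (RefSeq TAIR10.1). It was found in 535 of 1049 promoters of genes shifted up (51.0%) and in 91 of 408 of genes shifted down (22.3%), against 28.6% of all genes tested and 28.4% of all protein-coding genes. TGACG, the core of the as-1 element bound by TGA factors (its last letter differs from that of either W-box form, so no site counted as both), was found in 25.1% and 16.7%, against 19.5%. The G-box CACGTG (6.10% of genes shifted up, against 7.37%), the GCC-box GCCGCC (2.67%, against 2.08%), the evening element AAATATCT (5.15%, against 4.98%) and the I-box GATAAG (14.3%, against 12.3%) were near the share over all genes tested. A match is a description of letters and not a binding site. Below are 4 of these promoters, those of the 2 genes with the largest log2 fold changes in the immunity list (*PROPEP3* and *NHL10*) and in the camalexin list (*CYP82C2* and *CYP71A12*) described next, with W-box letters of either strand in capitals (GGTCAA and AGTCAA are the W-box read from the other strand); each runs 5′ to 3′ along the gene's own strand and ends at the base before the annotated start.
PROPEP3 (chr5:25939312-25939561, plus strand): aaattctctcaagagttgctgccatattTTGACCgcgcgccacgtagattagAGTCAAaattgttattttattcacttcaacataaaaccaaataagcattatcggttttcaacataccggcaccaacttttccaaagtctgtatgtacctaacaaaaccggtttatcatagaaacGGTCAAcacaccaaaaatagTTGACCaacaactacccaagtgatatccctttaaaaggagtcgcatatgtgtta
NHL10 (chr2:15110242-15110491, plus strand): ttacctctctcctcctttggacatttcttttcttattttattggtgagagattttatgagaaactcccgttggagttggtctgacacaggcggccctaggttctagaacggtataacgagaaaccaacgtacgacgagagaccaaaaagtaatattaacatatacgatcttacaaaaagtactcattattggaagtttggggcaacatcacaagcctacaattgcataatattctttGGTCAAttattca
CYP82C2 (chr4:15462100-15462349, plus strand): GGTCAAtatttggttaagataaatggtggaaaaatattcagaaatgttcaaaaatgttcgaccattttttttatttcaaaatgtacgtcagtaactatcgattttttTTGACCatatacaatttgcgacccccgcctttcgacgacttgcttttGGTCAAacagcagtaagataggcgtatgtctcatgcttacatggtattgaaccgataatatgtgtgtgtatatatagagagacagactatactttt
CYP71A12 (chr2:13101372-13101621, minus strand): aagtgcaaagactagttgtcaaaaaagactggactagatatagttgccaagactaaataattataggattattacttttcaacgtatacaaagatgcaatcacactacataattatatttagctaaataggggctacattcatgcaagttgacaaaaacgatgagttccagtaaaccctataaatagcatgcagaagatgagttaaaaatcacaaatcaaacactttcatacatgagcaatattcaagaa
*PROPEP3* has 4 W-boxes in this window, *CYP82C2* 3, *NHL10* 1 and *CYP71A12* 0.

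Genes of pattern-triggered immunity stood higher in *fer* replicates 3 and 4. Of the 20 members of that list, all tested, 9 were shifted up (45.0%, against 6.08% of all genes) and none down, all 20 had positive log2 fold changes, and the median was 0.93. *PROPEP3*, the precursor of the danger peptide Pep3, had 1.17, 1.41, 65.7 and 60.3 CPM in *fer* control replicates 1 to 4 and 1.36, 4.11, 23.4 and 55.9 CPM in *fer* arabidopside A replicates 1 to 4 (log2 fold change 4.23), and at most 0.767 CPM in any WT library. The sides did not overlap in either treatment, and from here on values in *fer* are given in the same order. *FRK1*, a receptor-like kinase gene widely used as a marker of early immune signalling, had 12.9, 17.9, 81.6 and 118 CPM in control and 6.42, 10.7, 73.0 and 83.0 CPM with arabidopside A (log2 fold change 2.92), with the highest value in control replicate 4. *NHL10*, another marker of that response, had 5.09, 3.87, 107 and 55.8 and 2.72, 5.77, 26.9 and 81.6 CPM (3.79), and *PROPEP2* had 2.94, 2.81, 31.5 and 41.8 and 1.94, 4.598, 17.3 and 30.6 CPM (3.06). The receptors and co-receptors moved less: the chitin receptor genes *CERK1* and *LYK5* were shifted up (log2 fold changes 1.14 and 1.25), as were *SOBIR1* (1.09) and the cytoplasmic kinase gene *BIK1* (1.25), whereas the flagellin receptor gene *FLS2* (0.14), *PEPR2* (0.19) and *MPK3* (0.13) were not. *FRK1* overlaps AT2G19180 on the other strand over 175 bases in the annotation, and the sources do not say whether counting used strand.

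Among 18 defence WRKY genes, 14 were shifted up (77.8%) and none down, with a median of 1.36. *WRKY6* had 22.3, 16.2, 182 and 137 CPM in control and 34.4, 65.1, 127 and 226 CPM with arabidopside A (log2 fold change 2.37), against a WT control mean of 11.2. *WRKY22*, which acts below immune MAP kinases, had 9.0, 8.09, 52.8 and 37.9 and 10.5, 12.9, 43.1 and 62.2 CPM (2.26), and *WRKY8* had 3.13, 3.52, 28.4 and 18.8 and 1.17, 5.804, 16.1 and 21.3 CPM (2.43). *WRKY30* was near the limit of counting in replicates 1 and 2, at 0, 0.352, 0 and 2.30 CPM, and had 3.14 to 9.14 CPM in replicates 3 and 4. Over all 51 WRKY genes tested, 20 were shifted up (39.2%, against 6.08% of all genes) and none down, a family pattern looked up after the leading genes were known.

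The largest list median belonged to camalexin and indole carbonyl nitrile synthesis, indole antimicrobials made from tryptophan. All 7 members were shifted up, with a median of 3.11 and a range from 1.297 (*GSTU4*) to 4.51 (*CYP82C2*). With at least 10 counts in every *fer* library, a filter that *CYP82C2* did not pass, the median was 2.74. *CYP71A12*, a cytochrome P450 that acts on indole-3-acetaldoxime, had 20.4, 23.2, 568 and 368 CPM in control and 27.6, 60.8, 190.1 and 581 CPM with arabidopside A (log2 fold change 3.71), and at most 3.28 CPM in any WT library. Its neighbour and close copy *CYP71A13* had 6.07, 8.09, 157 and 118 and 6.42, 28.2, 117 and 229 CPM (3.66); reads of the pair may be split between them, and *CYP71A13* overlaps AT2G30766 on the other strand. *CYP82C2*, which makes the hydroxylated indole carbonyl nitrile, had 0, 0, 45.2 and 20.01 and 0.389, 2.71, 9.43 and 49.3 CPM (4.51), so that 3 of the 4 libraries of replicates 1 and 2 were below 1 CPM. The other member with a large value was AT1G26380, annotated as a berberine-type oxidase, at 7.04, 6.68, 142 and 102 and 9.33, 21.5, 59.2 and 109.5 CPM (3.11).

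Tryptophan synthesis, which feeds these compounds, followed with smaller differences. Of 11 genes 6 were shifted up (54.5%, against 6.08% of all genes), with a median of 1.13. The gene shifted down was *PAI1*, at -1.06 (9.09%, against 2.36%). *ASA1*, the feedback-regulated subunit of anthranilate synthase, had 143, 146, 541 and 426 CPM in control and 189, 277, 360.2 and 618 CPM with arabidopside A (log2 fold change 1.40), and *TSA1*, the alpha subunit of tryptophan synthase, 214, 270.1, 774 and 581 and 263, 364, 538 and 779.7 CPM (1.28). In the indole glucosinolate list 5 of 19 were shifted up, and these were modifying or regulatory genes: *CYP81F2* (67.5, 26.03, 338 and 201 and 65.3, 146, 263 and 376 CPM; 2.03), which hydroxylates the indole ring, *IGMT2* (1.90), *MYB51* (1.56) and *MYB122* (1.92) are among them. The share shifted up in the indole glucosinolate list was 26.3%. The phenylpropanoid and lignin list had 6 of 16 shifted up (37.5%), all 16 positive and a median of 0.91. *PAL1*, the entry enzyme of that route, had 184, 202, 749 and 723 CPM in control and 189.7, 232, 500.2 and 862 CPM with arabidopside A (1.81; mean ± SD 202 ± 21.2 in replicates 1 and 2 and 709 ± 152 in replicates 3 and 4, n = 4 each), and *C4H*, the next enzyme, 469, 505, 1717 and 1459 and 399, 582, 1195 and 2235 CPM (1.75).

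Salicylic acid genes were shifted in part. Of 20 tested, 6 were shifted up (30%, against 6.08% of all genes) and none down (median 0.84). *CBP60G*, an activator of salicylic acid synthesis, had 20.5, 19.7, 107 and 123 CPM in control and 10.3, 14.8, 47.8 and 102 CPM with arabidopside A (log2 fold change 2.53), and the marker *PR5* had 7.24, 7.74, 33.9 and 24.2 and 5.05, 11.7, 23.57 and 44.1 CPM (1.94). *PR1*, the classical marker, was not called, since control replicate 4 (3.03 CPM) lay below control replicate 1 (4.11 CPM). The synthesis gene *ICS1* (0.69) and *EDS1* (0.03) were also not called. In the ethylene-jasmonate list 3 of 13 were shifted up (23.1%). They were the factors *ERF5* (1.21) and *ERF6* (1.76) and the defensin *PDF1.1*, which had 0.978, 0, 37.0 and 31.2 and 1.17, 2.68, 11.3 and 52.1 CPM (4.30).

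Genes of the detoxification, hypoxia and starvation lists were shifted up as well. For detoxification of oxylipins and xenobiotics 13 of 16 genes were shifted up (81.2%, against 6.08% of all genes), with a median of 1.46. *GSTF6*, a glutathione transferase, had 1074, 579, 4746 and 2203 CPM in control and 757, 1355, 3452 and 4910 CPM with arabidopside A (2.03; a close copy, *GSTF7*, lies beside it and had 2.22), and the cytochrome P450 *CYP81D8* had 20.4, 28.5, 283 and 111 and 19.2, 54.2, 93.6 and 305 CPM (2.69). The hypoxia list had 8 of 12 shifted up (66.7%) and all 12 positive (median 1.62). *PDC1*, pyruvate decarboxylase of ethanol fermentation, had 76.5, 80.5, 577 and 235 CPM in control and 50.1, 92.2, 117 and 674 CPM with arabidopside A (2.42), so that treated replicates 2 and 3 lay close together. The sucrose synthase gene *SUS4* stood at 15.5, 7.39, 118 and 23.3 and 11.1, 20.01, 20.1 and 109.5 CPM (2.27). In both genes control replicate 3 and arabidopside A replicate 4 stood far above the other 6 libraries.

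The immunity genes above were mixed in this respect: *NHL10* had the same 2 libraries on top, whereas *FRK1* and *PROPEP2* were highest in control replicate 4 and *PROPEP3* had similar values in control replicates 3 and 4. *DIN2*, a beta-glucosidase gene of dark and sugar starvation, had 0.587, 0.352, 37.3 and 13.6 CPM in control and 1.36, 1.28, 3.84 and 58.9 CPM with arabidopside A (4.83), and *ASN1*, asparagine synthetase, 5.09, 2.46, 36.6 and 5.15 and 9.53, 12.7, 12.2 and 39.2 CPM (1.65), which was not called because treated replicate 3 lay below replicate 2. Mean list levels show the same: the hypoxia list was 3.79 and 2.63 above the WT control mean in *fer* control replicates 3 and 4 and 2.45 and 3.94 in arabidopside A replicates 3 and 4 (log2), and the dark and sugar starvation list 2.63, 1.18, 1.38 and 2.88, whereas the immunity list was at 2.82, 2.78, 2.49 and 2.78. No test of this contrast was made. The share shifted up was 36.4% in the dark and sugar starvation list and 40% in the phosphate starvation list, against 6.08% of all genes. The starvation list had 4 of 11 genes shifted up, and the phosphate starvation list 4 of 10, led by *PS2* (3.13, 11.2, 73.4 and 26.1 and 7.78, 12.02, 15.9 and 74.7 CPM; 2.47).

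Oxidative stress genes were shifted up in 6 of 12 cases (median 1.03), among them the zinc finger factor *ZAT12* (22.1, 19.0, 173 and 62.5 and 19.2, 31.6, 42.4 and 195 CPM; 2.34), the alternative oxidase *AOX1D* (2.88) and the kinase *OXI1* (2.29). The touch and calmodulin-like list had 6 of 16 up (37.5%, against 6.08% of all genes) and 1 down (6.25%, against 2.36%). ER chaperone and unfolded-protein genes had 3 of 15 up, with all 15 positive and a median of 0.49, and *BIP3*, the stress-induced binding protein, stood at 1.96, 2.81, 25.7 and 24.9 and 2.14, 2.07, 8.90 and 18.1 CPM (3.00). Heat shock genes had none of 13 shifted (median 0.43), and the circadian clock 2 of 18 (*RVE1* and *LNK2*, both at 4.096 CPM or less in every *fer* library). Nitrate response genes had 2 of 13 up, one of them nitrate reductase *NIA2*, at 702, 785, 1831 and 1180 and 735, 888, 1220 and 2128 CPM (1.03). Sulfate assimilation had 1 of 13 (*APK2*, 1.03), and iron deficiency 1 of 7 (*BTS*, 1.03). These last 4 counts rest on 1 or 2 genes each, and their shares (7.69% to 15.4%, against 6.08% of all genes shifted up) are too close to that of all genes to set the lists apart.

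**Figure D3:**
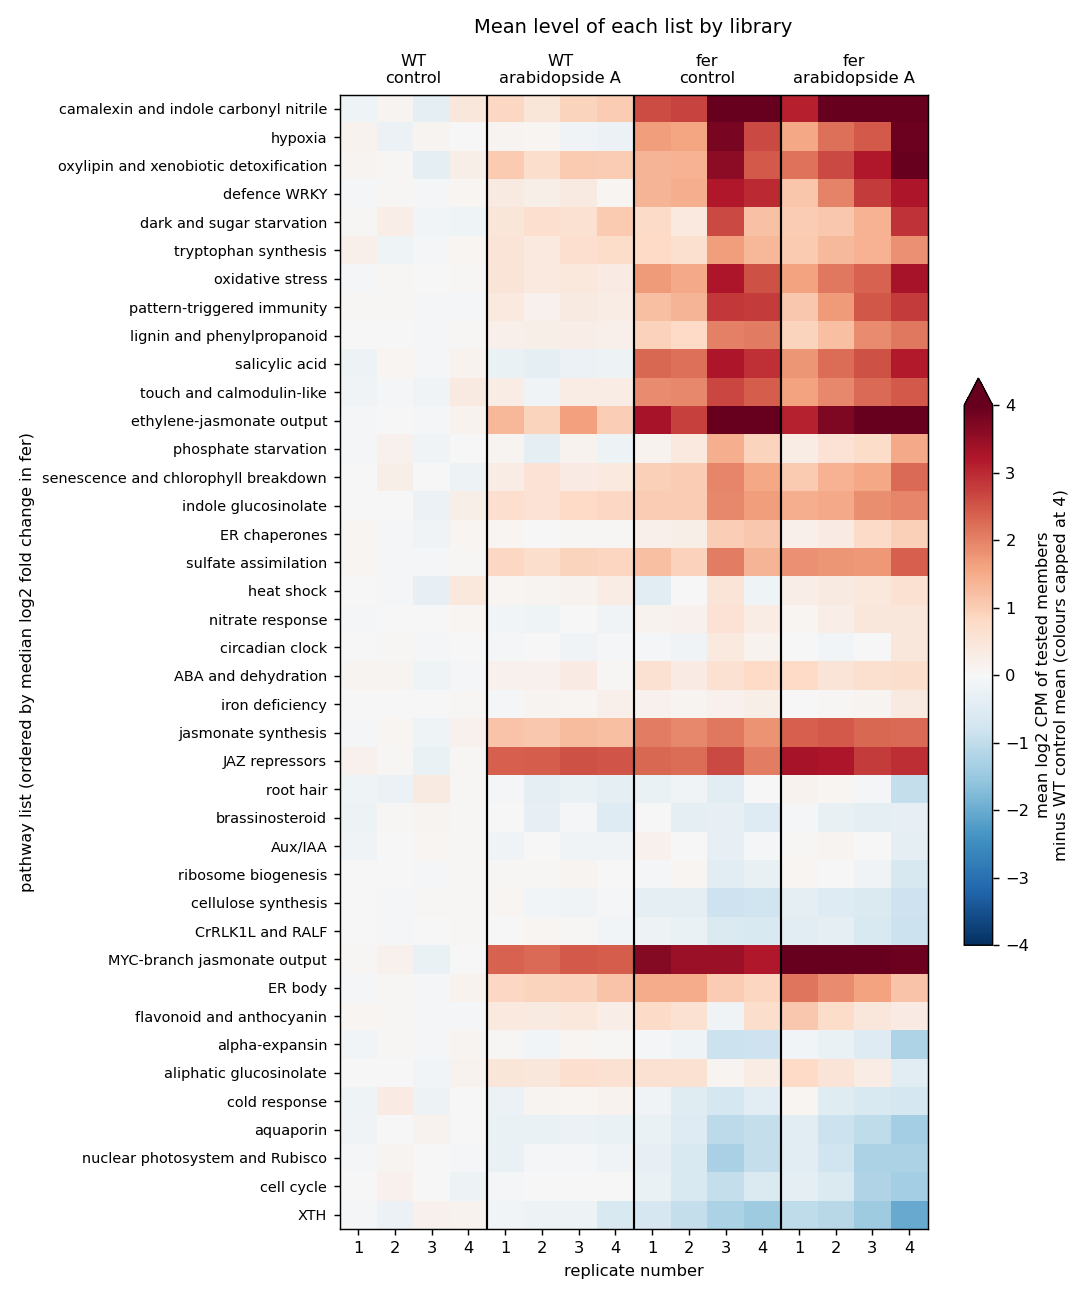
Mean log2 CPM of the tested members of each of 40 pathway lists in each library, minus the WT control mean; rows are ordered by the median log2 fold change of replicates 3 and 4 against 1 and 2 in *fer*, columns are libraries, and colours are capped at 4. The upper rows are darker in *fer* replicates 3 and 4 than in 1 and 2, the lowest rows bluer, and the 4 WT control columns are pale throughout.

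Genes outside the lists were among those with the largest differences. Among 594 genes shifted up with a mean of at least 20 CPM over the *fer* libraries, AT3G29970, annotated as a B12D protein, came first with 0, 0.352, 107 and 23.65 CPM in control and 0.972, 2.83, 16.2 and 152 CPM with arabidopside A (log2 fold change 5.68). Next were the adjacent peroxidase genes AT1G14550 (0.587, 0.352, 77.4 and 47.3 and 0, 1.47, 9.78 and 59.4 CPM; 5.45) and *PER4* (3.72, 2.46, 205 and 105 and 2.14, 3.62, 30.9 and 168 CPM; 5.21). They were followed by AT1G26390, a berberine-type oxidase gene beside AT1G26380, at 0.196, 1.76, 87.8 and 25.8 and 0.194, 2.56, 8.21 and 80.5 CPM (4.96). Folds of genes this close to 0 in replicates 1 and 2 depend on the prior count of the fit. AT3G29970, AT1G14550, *PER4* and AT1G26390 did not pass the filter of at least 10 counts in every *fer* library. Genes with a higher start behaved alike: AT1G53625, of no annotated function, had 43.6, 34.8, 849 and 559 and 33.8, 63.3, 329 and 877 CPM (3.87), and AT2G17740, a cysteine- and histidine-rich C1 domain gene, 25.8, 26.4, 388 and 473 and 19.4, 28.7, 234 and 394 CPM (3.85). AT2G44370, of the same C1 family, had 22.7, 12.3, 278 and 447 and 6.22, 9.57, 172 and 274 CPM (4.55), with its highest value in control replicate 4. The extensin-like gene AT1G26240 (4.15), AT2G45220 of the pectin methylesterase inhibitor superfamily (4.04), the berberine-type AT1G30700 (3.88), AT1G13520 (4.46), AT1G06983 (3.78) and AT5G10040 (4.21), which overlaps another gene on the opposite strand over 435 bases, complete the 15 together with *PROPEP3* and *NHL10*. By annotated product, and with patterns looked up after these genes were known, 16 of 47 glutathione transferases (34%), 13 of 52 peroxidases (25.0%), 55 of 229 receptor-like kinases (24.0%) and 17 of 96 NBS-LRR resistance genes (17.7%) were shifted up. The share over all genes tested was 6.08%.

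**Figure D4:**
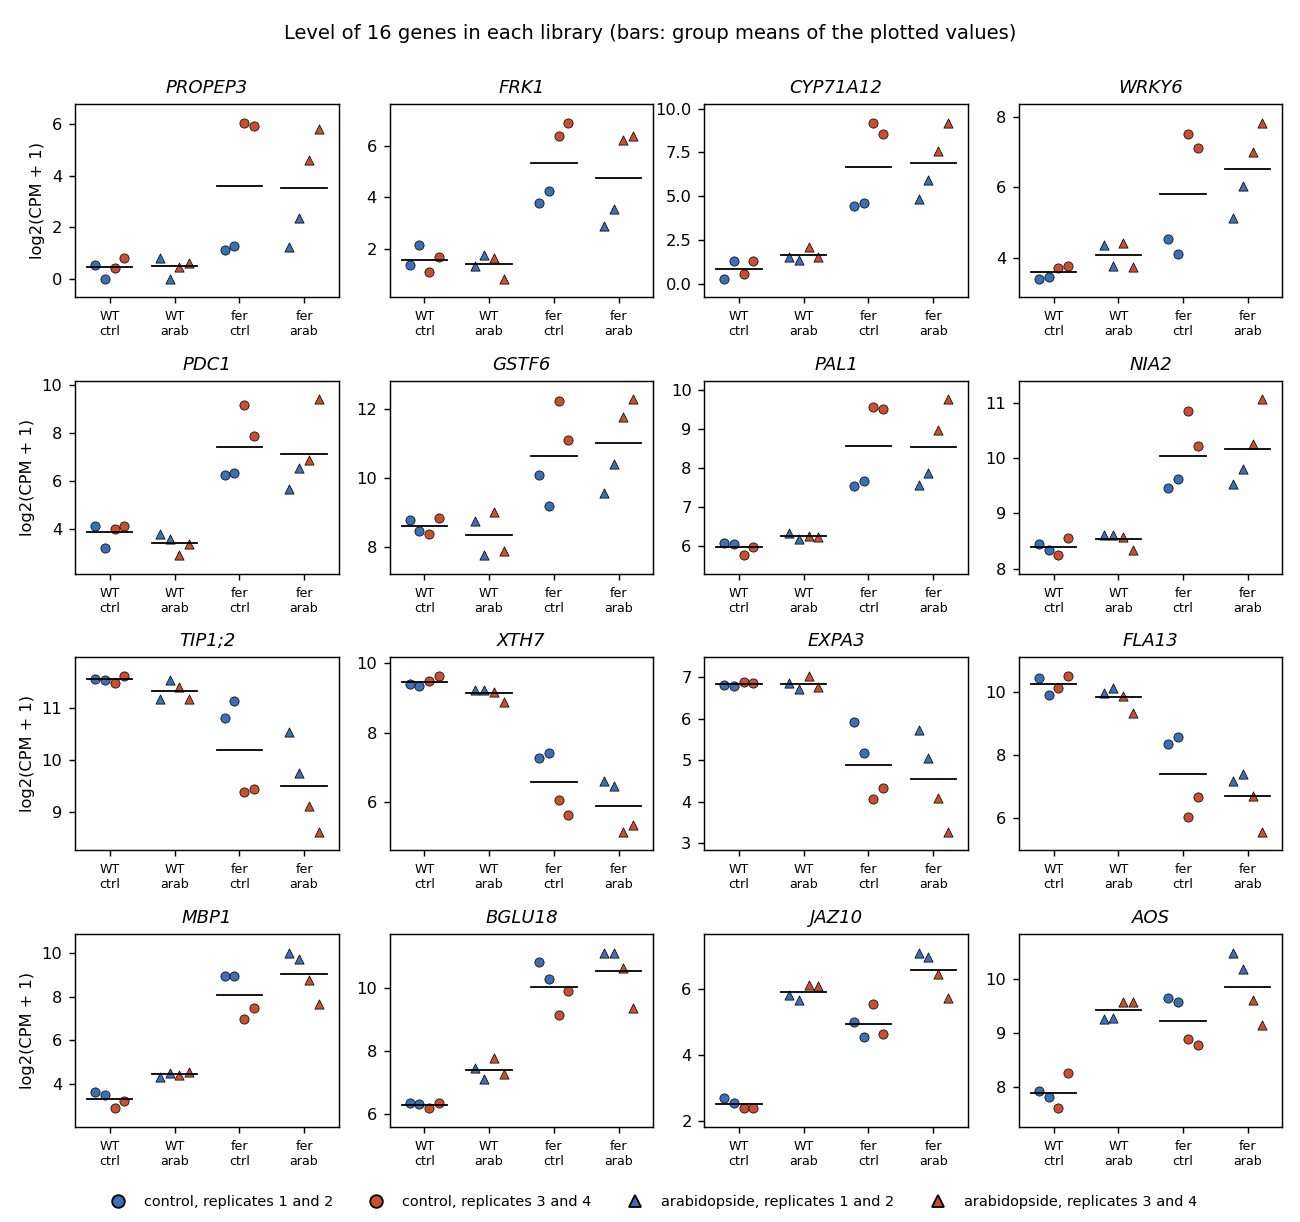
Level of 16 genes in each of the 16 libraries as log2(CPM + 1), by group (ctrl, control; arab, arabidopside A), with circles for control, triangles for arabidopside A, blue for replicates 1 and 2, red for replicates 3 and 4 and bars for group means of the 4 values. In *fer* the red points of *PROPEP3* to *NIA2* lie above the blue ones and those of *TIP1;2* to *BGLU18* below them, *JAZ10* and *AOS* were not called, and red and blue mix in WT.

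Wall-loosening genes stood lower in *fer* replicates 3 and 4. The XTH list, enzymes that cut and rejoin xyloglucan in the wall, had the lowest median of all 40 lists at -0.78, with 8 of 18 genes shifted down (44.4%, against 2.36% of all genes) and 2 up. *XTH7* had 152, 169.9, 65.7 and 48.8 CPM in control and 95.8, 86.6, 34.6 and 39.5 CPM with arabidopside A (log2 fold change -1.39), against a WT control mean of 703. *XTH6* had 16.4, 13.7, 3.77 and 2.12 and 11.3, 6.14, 2.79 and 2.83 CPM (-1.92), while *XTH23* (1.38) and *XTH18* (1.297) went the other way. Of 14 alpha-expansin genes, which loosen walls at acid pH, 4 were shifted down (28.6%) and 13 had negative log2 fold changes. *EXPA3* had 59.5, 35.2, 15.8 and 19.1 CPM in control and 52.1, 32.3, 15.9 and 8.66 CPM with arabidopside A (-1.62), below the WT control mean of 113 in every library, and *EXPA11* had 21.7, 19.7, 4.21 and 3.64 and 10.7, 6.56, 3.67 and 2.52 CPM (-1.90).

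Vacuolar and plasma membrane water channels differed less. 1 of 19 aquaporins was called (5.26%, against 2.36%), and 17 of 19 were negative, with a median of -0.60. That one, the tonoplast channel *TIP1;2*, had 1806, 2258, 669 and 696 CPM in control and 1484, 864, 554 and 391 CPM with arabidopside A (-1.44), against a WT control mean of 3023. All 36 nuclear photosystem and Rubisco genes had negative log2 fold changes (median -0.63), though only *PSAN* (265, 209.6, 91.8 and 139 and 225, 194, 109.5 and 93.9 CPM; -1.04) and *PSBO2* (-1.25) were called (5.56%); the shoot markers, which include 4 of these genes, moved in the same direction. For the 14 cell cycle genes, 13 negative with a median of -0.67, and for the 9 ribosome biogenesis genes, all negative with a median of -0.34, none was called. Cellulose synthesis genes were also not called (0 of 12, median -0.38), with *COB*, which guides cellulose deposition, at 173, 118, 91.2 and 78.8 and 144, 121, 111 and 82.1 CPM (-0.61).

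Within the family of *FER* and its ligands, 3 of 11 genes were shifted down (27.3%, against 2.36% of all genes). They were the RALF peptide genes *RALF23* (38.5, 30.6, 13.3 and 12.4 and 24.5, 24.6, 14.8 and 11.8 CPM; -1.14), whose peptide is bound by FER, and *RALFL34* (143, 154, 56.6 and 82.8 and 156, 113, 69.1 and 56.4 CPM; -1.10), and the leucine-rich repeat extensin gene AT4G18670 (-1.20). The receptor gene *THE1*, a relative of *FER* that monitors the wall, was at 6.62 to 13.1 CPM in every *fer* library (-0.62) and was not called. Of the 11 genes, 5 had positive log2 fold changes, and the list median of -0.41 was 0.10 without a filter. Auxin repressor genes of the Aux/IAA family went both ways (2 down and 1 up of 20), brassinosteroid genes had none of 10 called, and of 9 root hair genes only *PRP3* was (-1.36).

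The 15 genes with the largest differences in that direction, out of 114 shifted down with a mean of at least 20 CPM, had log2 fold changes between -1.56 and -1.78. *CER2*, needed for very long wax chains, had 76.5, 77.7, 18.19 and 20.6 CPM in control and 49.0, 42.8, 21.3 and 10.9 CPM with arabidopside A (-1.75; it overlaps AT4G07275 on the other strand), *FLA13*, a fasciclin-like arabinogalactan protein gene, 326, 379.8, 63.9 and 99.4 and 143, 168, 101 and 45.7 CPM (-1.59), and the glucomannan synthase gene *ATCSLA09* 149, 410.1, 41.0 and 74.3 and 159, 117, 107 and 38.1 CPM (-1.59). The largest was AT2G27402, annotated as a plastid transcriptionally active protein, with 41.5, 54.2, 11.53 and 17.9 and 46.6, 32.0, 15.4 and 6.46 CPM (-1.78). Also among the 15 were *CAD9* (141, 201, 36.6 and 54.3 and 88.2, 64.7, 33.5 and 27.2 CPM; -1.62), *EXPA3*, the leucine-rich receptor-like kinase gene AT1G72180 (-1.72), the methionine sulfoxide reductase gene *MSRB6* (-1.67), the lipid-transfer-type AT2G10940 (-1.59), the GDSL lipase-like AT3G16370 (-1.58) and *RGF6*, a root meristem growth factor gene (-1.56). AT1G72180, AT3G16370 and *RGF6* each overlap a gene on the other strand. By annotated product, and again with patterns looked up afterwards, 7 of 15 fasciclin-like arabinogalactan genes (46.7%) and 9 of 44 GDSL lipases (20.5%) were shifted down, and 1 of 351 ribosomal protein genes. The share over all genes tested was 2.36%.

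Others among the 15 were far above WT in *fer*, less so in replicates 3 and 4. *MBP1*, a myrosinase-binding protein gene of the glucosinolate system, had 484, 487, 123 and 179.5 CPM in control and 1032, 849, 427 and 199.6 CPM with arabidopside A (log2 fold change -1.64), against a WT control mean of 9.06. The lectin gene AT1G52000, close to *MBP1* on the same chromosome, had 105, 67.9, 37.0 and 29.1 and 255, 202, 77.7 and 42.5 CPM (-1.67; WT control mean 4.26), the knottin-type defence gene AT2G43530 49.7, 71.0, 22.6 and 22.4 and 113, 88.6, 33.5 and 22.5 CPM (-1.64; 3.07) and *PGL5*, a phosphogluconolactonase, 30.9, 13.4, 11.8 and 3.03 and 133, 99.3, 38.8 and 22.5 CPM (-1.78; 1.71). Of all 408 genes shifted down, 84 were above every WT control library in *fer* control replicates 1 and 2 (20.6%, against 22.1% of all genes tested) and 25 in replicates 3 and 4 (6.13%, against 29.1%). These genes were chosen for lower values in replicates 3 and 4, so the lower share there follows in part from that choice.

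ER body genes belonged to that kind. ER bodies are compartments of Brassicales that store beta-glucosidases. All 19 genes of the list had negative log2 fold changes between the sides, with a median of -0.49 and 4 shifted down (21.1%, against 2.36% of all genes). *BGLU18*, a beta-glucosidase of stress-induced ER bodies, had 1807, 1238, 559.7 and 942 CPM in control and 2221, 2177, 1573 and 657 CPM with arabidopside A (-1.001; 1861 ± 455 and 933 ± 457, mean ± SD, n = 4 on each side), against a WT control mean of 76.6. *GLL23*, a GDSL lipase-like protein of the PYK10 complex, had 349, 571, 206 and 232 and 533, 492, 295 and 218 CPM (-1.03). *PYK10*, the main beta-glucosidase of seedling ER bodies (-0.37), and *NAI1*, their transcription factor (-0.47), were not called. The list level, as a mean over the members, was 1.48, 1.48, 1.02 and 0.87 above the WT control mean in *fer* control replicates 1 to 4 and 2.13, 1.88, 1.60 and 1.15 with arabidopside A (log2).

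The jasmonate lists differed among themselves in the split. The JAZ repressors, which hold back jasmonate transcription, stood at medians of 2.42 above the WT control mean in *fer* control replicates 1 and 2 and 2.51 in replicates 3 and 4 (log2). With arabidopside A the list level, as a mean over the members, was lower in replicates 3 and 4. It was 3.30, 3.24, 2.80 and 2.95 in *fer* replicates 1 to 4. The largest log2 fold change of the list was that of *JAZ9* (-0.67). None of 11 JAZ repressor genes was shifted (median -0.16), nor was any jasmonate synthesis gene but *ACX1*, an oxidase of peroxisomal beta-oxidation (1.07), out of 14 (median -0.07). *JAZ10* had 31.3, 22.5, 45.9 and 23.9 CPM in control and 136, 124, 86.2 and 52.5 CPM with arabidopside A (-0.33), and its sides overlapped in control. *AOS*, allene oxide synthase, had 798, 754, 469 and 437 and 1428, 1151, 773 and 566 CPM (-0.86). In the MYC-branch output list 3 of 8 were shifted down (37.5%, against 2.36% of all genes), with folds close to the threshold: *VSP2* (353, 286, 143 and 171 and 567, 391, 259 and 212 CPM; -1.03), its relative *VSP1* (-1.02) and *CORI3* (-1.01). Aliphatic glucosinolate genes had 1 of 18 shifted down (5.56%, against 2.36%), the regulator *MYB29* (-1.58), and 17 of 18 negative (median -0.55).

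The same lists were read in the response to arabidopside A in WT, a comparison that shares no library with the split. edgeR called 1212 of 16775 genes (7.23%), 849 raised (5.06%) and 363 lowered (2.16%). Of the JAZ genes 10 of 11 were raised in WT (median log2 fold change 2.58), of the MYC-branch output 8 of 8 (2.16), of jasmonate synthesis 10 of 14 (1.29), of ER body genes 17 of 19 (0.93) and of aliphatic glucosinolate genes 14 of 18 (0.55). Other lists with negative medians in the split went down in WT in part. The XTH list had 10 of 21 genes lowered and 1 raised (median -0.40), against 2.16% of all genes lowered. Aquaporins had 4 of 19 lowered and 0 raised, and alpha-expansins 3 of 13 lowered and 1 raised. Photosystem and Rubisco genes had 1 of 36 lowered, and cell cycle genes 0 of 14. *JAZ10* rose by 3.66 on the log2 scale (standard error 0.16, adjusted p = 2.06e-19, edgeR) and *BGLU18* by 1.13 (standard error 0.11, adjusted p = 4.03e-08, edgeR). The lists with the 8 highest medians in the *fer* split varied in WT. Of camalexin genes 1 of the 3 that could be tested was raised, of hypoxia genes 0 of 11 (1 was lowered), of detoxification genes 8 of 15, of defence WRKY genes 3 of 14, of dark and sugar starvation genes 3 of 10, of tryptophan synthesis genes 6 of 11, of oxidative stress genes 2 of 10 and of immunity genes 4 of 16 (1 was lowered). Apart from the hypoxia list, these shares lie above the 5.06% of all genes, on few genes each. *PAL1* was not called there (log2 fold change 0.28, standard error 0.10, adjusted p = 0.0813, edgeR), nor was *WRKY6* (0.54, standard error 0.18, adjusted p = 0.0738, edgeR).

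Indole glucosinolate genes were raised in WT in 15 of 19 cases and sulfate assimilation genes in 7 of 11. *CYP81F2* rose by 1.31 (standard error 0.20, adjusted p = 1.01e-05, edgeR) and *ASA1* by 1.11 (standard error 0.10, adjusted p = 2.11e-11, edgeR). Of the 1049 genes shifted up in *fer*, 730 could be tested in WT, and 127 of these were raised (17%, against 5.21% of all genes tested in both; 15% of the 849 raised genes) and 14 lowered (1.92%). Of 391 tested genes shifted down, 46 were raised (11.8%) and 37 lowered (9.46%, against 2.16%; 10.5% of the lowered genes). The other 319 genes shifted up did not pass the filter on counts in WT.

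**Figure D5:**
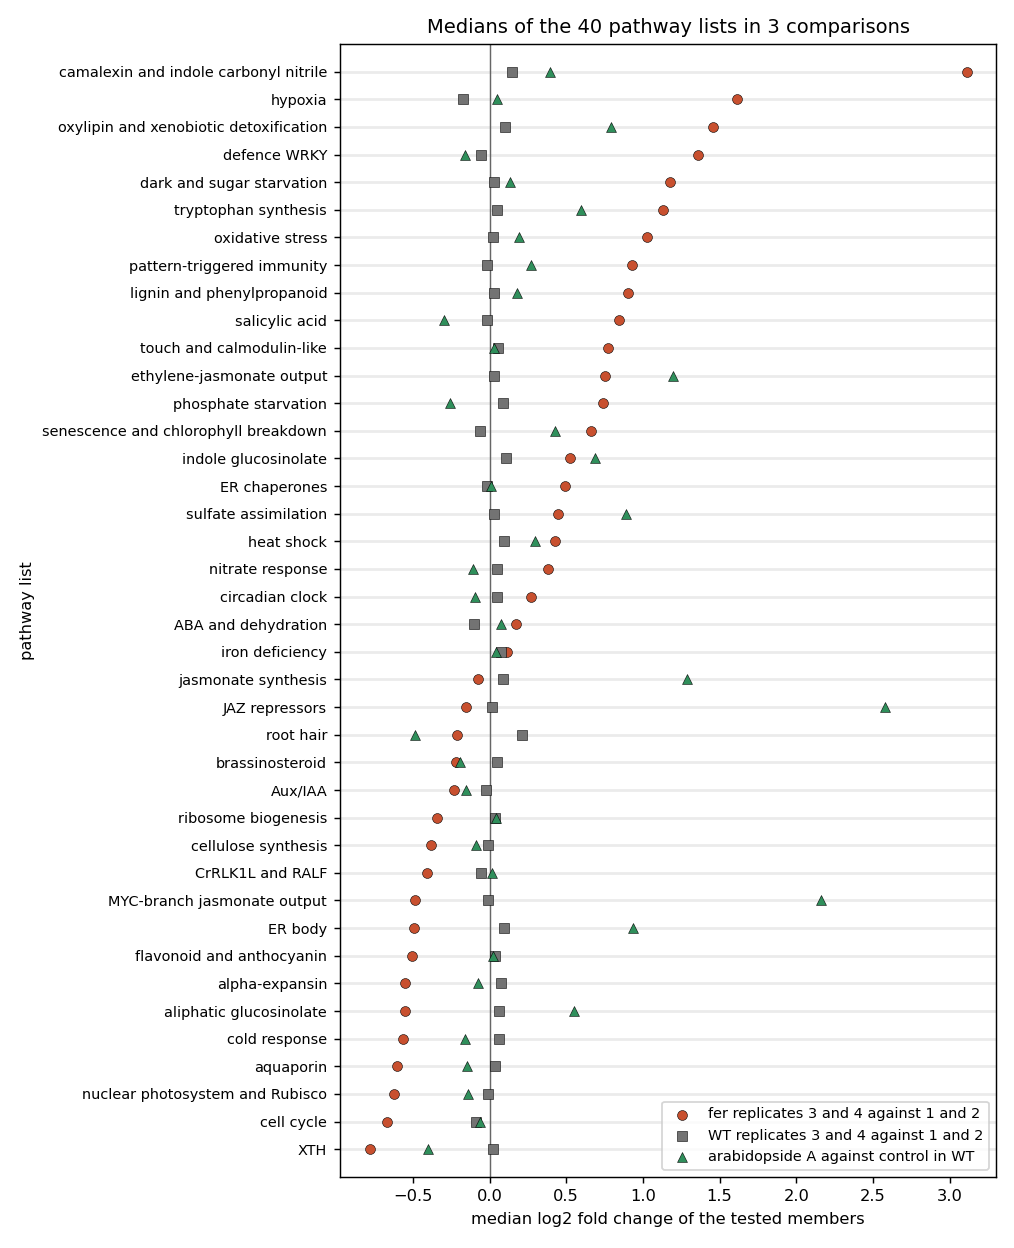
Median log2 fold change of the tested members of each of 40 lists in *fer* replicates 3 and 4 against 1 and 2 (circles), in the same comparison of WT (squares) and in arabidopside A against control in WT (triangles). The circles run from 3.11 to -0.78, the squares stay between -0.17 and 0.21, and the triangles reach 2.58 for the JAZ repressors, whose circle is at -0.16.

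Over all 40 lists, 571 of 627 members were tested, 115 were shifted up and 37 down, and 22 lists had a positive median. Without arabidopside A replicate 1 of *fer* the members shifted down numbered 23 in place of 37. Under each of the 3 other scalings no list median changed sign. With at least 10 counts in every *fer* library, 99 members were shifted up and 27 down. Members that did not pass that filter included *PROPEP3*, *PROPEP2*, *CYP82C2*, *WRKY8*, *WRKY30*, *DIN2*, *PDF1.1* and *BIP3*, all shifted up or with large folds above.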

How the data were processed

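3′-end libraries (QuantSeq, 50-bp reads) of 16 seedling samples were used, 4 replicates in each of 4 groups. Per the authors' methods, STAR placed the reads on TAIR10 and HTSeq, in its intersection-nonempty mode, gave the deposited counts of each gene, which are raw and not normalized. SAMtools is also named in the submitters' processing notes, and versions, strand option and the handling of reads shared by close gene copies are not given in the sources used here. The table holds 32833 genes, of which 6850 had 0 counts in every library; plastid and mitochondrial genes are listed at 0. Libraries of 1 group differed by more than sampling noise in all 24 pairs (chi-square per gene 2.61 to 71.3, genes with at least 10 counts in the pair), so each counted as 1 sample.

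Genes were filtered with filterByExpr and scaled by TMM over all 16 libraries (edgeR 4.0.16, R 4.3.3), and CPM are counts scaled to the TMM-adjusted library size. For *fer*, log2 fold changes came from glmQLFit with treatment as covariate over the 8 libraries, and overlap was judged on log2 CPM with a prior count of 2. For WT, edgeR's quasi-likelihood F test was run on the 8 WT libraries with their own TMM factors and Benjamini-Hochberg adjustment over all genes tested (threshold 0.05). The replicate number could not be a block in *fer*, because each number lies wholly on one side of the split. The same-numbered *fer* libraries deviated together in every pair (correlations 0.20 to 0.64), as did unlike numbers within a side. The steps were tested on simulated counts. Counts limit the precision of genes near 0 CPM, and p-values measure the spread between these samples, since the labels do not say what a replicate was drawn from.

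The text names *FER*, the 15 largest differences in each direction among shifted genes with a mean of at least 20 CPM in *fer*, and up to 4 members of each list with the largest absolute log2 fold change. Further members, chosen after their values were seen, are named to show what was not shifted or to complete a count. The split, the 40 lists and the tests were chosen with earlier results of these data known. Names, products and overlaps came from RefSeq TAIR10.1, which annotates 32548 of the identifiers, and promoter coordinates are of that build. Alternatives were other scalings, filters, fold thresholds, treatment subsets, a thinned deep library, DESeq2 1.42.0, limma-voom (limma 3.58.1), the replicate block in WT and leaving out each library.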

Additional observations from a re-analysis of the deposited data

Results flagged for a closer look

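In 5 of 104 groups of 4 values examined (library totals, marker sums and list levels), 1 library lay far from the other 3, and chance alone gives about 1 in 20. Total counts of *fer* with arabidopside A replicate 2 were 26358335, against 4994304 to 6860427 in the other libraries of that group. The list levels that stood out, as mean log2 CPM of the tested members minus the WT control mean, were the following. The flavonoid and anthocyanin list was at -0.14 in *fer* control replicate 3, against 0.61 to 0.75 in the other *fer* control libraries. The sulfate assimilation list was at 2.40 in *fer* with arabidopside A replicate 4, against 1.72 to 1.83. The brassinosteroid list was at -0.068 in *fer* with arabidopside A replicate 1, against -0.35 to -0.31. The Aux/IAA list was at -0.38 in *fer* with arabidopside A replicate 4, against 0.03 to 0.09. Of the members of these lists, 3 were shifted down and 1 up of 16 in the flavonoid list, 2 down and 1 up of 20 in the Aux/IAA list, 1 up of 13 in the sulfate list and 0 of 10 in the brassinosteroid list.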

How the results depend on the processing

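With log2 fold change minimums of 0.58 and 2 in place of 1, 1928 and 253 genes were shifted up and 1386 and 14 down, and 101 and 0 list members down; at 2, 34 list members were up. Without a filter 645 genes were shifted down, and 231 with at least 10 counts in every library. Leaving out each *fer* library in turn gave 958 to 1467 genes up and 337 to 716 down (100 to 140 and 23 to 48 list members). Counts with DESeq2 size factors, upper quartile or library-size scaling, 1 treatment only, no condition on overlap or the deep library thinned to 4967576 counts were within 1.5 times the main ones. Control libraries alone gave 1096 up and 419 down, of which 768 and 197 were among the genes of the joint definition. Of 3465 alternative values for 187 named genes, 3423 moved by less than the spread between replicates and 42 by more, and of 760 list medians 35 moved. Reversals of sign were counted for shifted genes only, and there were 0. Among genes that were not shifted signs did change, as for *JAZ10*, from -0.33 to 0.37 in control libraries alone. Genes that failed a filter gave no value under it. No list median changed sign under the 3 scalings, and 2 did without a filter or in 1 treatment alone. Leaving out *fer* control replicate 4 changed the sign of 2 list medians. Leaving out *fer* control replicate 1 or *fer* arabidopside A replicate 4 changed that of 1 each. The cause of these changes was not tested.

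In WT, same-numbered control and treated libraries did not deviate together (correlations -0.04 to 0.02). With the replicate number as a random block (limma-voom, consensus correlation -0.07), 0 genes were called between replicates 3 and 4 and 1 and 2, as with every other setting except no filter, which called 4; with the number as a fixed block, 1182 genes responded to arabidopside A in place of 1212. Leaving out each WT library gave 0 calls in each case for the split and 993 to 1154 for the response, and DESeq2 gave 0 and 1049. Depth limits genes near 0 CPM in replicates 1 and 2, for which the size of a fold is uncertain.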

Other observations

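Product families outside the lists were counted as well, with patterns written after the leading genes were known. Of transcription factor families, 8 of 53 ERF/AP2 factors (15.1%) and 7 of 38 NAC factors (18.4%) were shifted up and none down, against 6.08% and 2.36% of all genes tested, while MYB factors had 7 up and 7 down of 85. Cytochrome P450 genes had 22 of 134 up (16.4%) and UDP-glucosyltransferases 14 of 108 (13.0%), with medians of -0.07 and 0.01 over each family. Of 34 SAUR genes, small auxin-induced growth genes, 4 were shifted down (11.8%) and none up (median log2 fold change -0.52), and of 55 tubulin or kinesin genes 3 were down (5.45%, against 2.36%; median -0.42). Pectinesterase and pectin lyase genes had 8 of 79 down (10.1%) and 5 up (6.33%). None of 42 histone genes (median -0.16) or 23 chlorophyll-binding protein genes (median -0.60) was shifted.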
